A study of Mus musculus with 36 samples.

Results

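The genes of the YAP and TEAD pathway described here are Yap1, Wwtr1, Tead1, Lats1, Lats2, Ctgf, Cyr61, Ankrd1 and Amotl2, 9 of the 24421 genes counted in mouse liver. They were chosen by name, and every one of them had reads in each of the 36 libraries. All livers came from male C57BL/6J mice, bought at 7 weeks of age, that had spent 12 weeks on CDAHFD, a diet high in fat with defined amino acids and no added choline that induces steatohepatitis with fibrosis. One experiment then gave them an HFD (high-fat diet) for 2 weeks and a weekly injection of Fc at 4.3 mg/kg (10 mice) or Fc(mML1)B3 at 5 mg/kg (10 mice). A separate experiment placed them on a standard diet for 10 days with Fc (9 mice) or Fc(mML1)B3 (7 mice) at the same doses on days 1, 4 and 7. Fc(mML1)B3 is a human immunoglobulin Fc fragment with a Met-binding peptide inserted in its loops, and it mimics hepatocyte growth factor (HGF), the ligand of the Met receptor. Fc is the same fragment without the peptide.

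No group was left on the CDAHFD or kept on a normal diet throughout, so all 4 groups are livers after 12 weeks of CDAHFD and a change of diet. Each library was 1 mouse. The diets belong to different experiments with different dosing and duration, and these cannot be told apart in any comparison between diets. Total counts were 14949035 to 28466853 per library, and counts differed by more than sampling noise in each of the 630 pairs of libraries. Of 8 hepatocyte marker genes, none was at 0 reads, and their summed level was 72000 to 148000 CPM (counts relative to the scaled library total), as the label liver implies. In the HFD experiment the file names carry the numbers 7 to 10 over Fc mice 1 to 4 and 1 to 6 over Fc mice 5 to 10. Over the Fc(mML1)B3 mice they run from 1 to 4 over mice 1 to 4 and again from 1 to 6 over mice 5 to 10. What the numbers mark, and whether the Fc mice of the HFD go with either run, is not given in the sources used here. In the standard diet experiment Fc mice 1 to 5 carry numbers below 100. Fc mice 6 to 9 and every Fc(mML1)B3 mouse carry numbers above 100. The numbers there thus go partly with the injected protein, so that comparison is not balanced for them. Fits with numbers above 100 alone leave out Fc mice 1 to 5.

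The Hippo pathway is a kinase cascade that restrains organ size. Its kinases LATS1 and LATS2 phosphorylate the coactivators YAP (Yap1) and TAZ (Wwtr1), which keeps them out of the nucleus, and in their unphosphorylated form YAP and TAZ bind the DNA-binding factors of the TEAD family, among them TEAD1. Ctgf and Cyr61, which encode secreted matricellular proteins, Ankrd1, which encodes a nuclear and sarcomeric ankyrin repeat protein, and Amotl2, which encodes a junction protein that holds YAP back, are widely used as readouts of YAP and TEAD activity. In liver, YAP is known for its high level in bile duct cells and for its part in regeneration, and TAZ for its link to fibrosis in steatohepatitis. YAP and TAZ are regulated mainly as proteins, which RNA counts do not measure.

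TEAD factors bind the letters GGAATG, read CATTCC on the other strand. The 250 bases before the annotated start were read from RefSeq (GRCm38.p6) for 7 of the 9 genes. The sequences of 4 genes are shown, 5′ to 3′ on the strand of the gene, because they hold these letters before a readout gene or before Wwtr1, the gene called with Fc(mML1)B3 under the HFD. Capitals mark the match, and the last base stands just before the start.
Ankrd1, chr19:36119845-36120094, minus strand: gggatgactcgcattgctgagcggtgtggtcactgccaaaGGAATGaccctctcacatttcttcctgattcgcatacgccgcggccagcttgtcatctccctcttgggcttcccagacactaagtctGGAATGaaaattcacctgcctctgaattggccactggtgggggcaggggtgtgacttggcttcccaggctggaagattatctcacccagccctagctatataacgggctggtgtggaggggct
Cyr61, chr3:145649986-145650235, minus strand: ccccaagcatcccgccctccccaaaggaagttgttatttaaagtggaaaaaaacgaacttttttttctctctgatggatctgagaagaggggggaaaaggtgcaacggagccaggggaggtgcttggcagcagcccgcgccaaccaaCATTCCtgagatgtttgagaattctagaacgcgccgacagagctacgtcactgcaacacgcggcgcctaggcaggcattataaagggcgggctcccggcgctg
Amotl2, chr9:102717554-102717803, plus strand: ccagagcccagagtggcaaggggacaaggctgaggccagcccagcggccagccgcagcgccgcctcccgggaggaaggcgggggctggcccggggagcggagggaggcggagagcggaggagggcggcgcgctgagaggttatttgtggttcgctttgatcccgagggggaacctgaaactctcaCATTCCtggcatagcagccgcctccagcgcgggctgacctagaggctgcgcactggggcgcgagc
Wwtr1, chr3:57575911-57576160, minus strand: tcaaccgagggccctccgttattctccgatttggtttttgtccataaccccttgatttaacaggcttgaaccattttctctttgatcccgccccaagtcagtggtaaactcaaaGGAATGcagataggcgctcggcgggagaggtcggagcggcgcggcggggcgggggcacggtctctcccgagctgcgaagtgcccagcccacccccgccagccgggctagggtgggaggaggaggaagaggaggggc
Ankrd1 held 2 matches, 118 to 123 and 205 to 210 bases before its start. The match was 98 to 103 bases before the start of Cyr61 and 60 to 65 before that of Amotl2, and Wwtr1 held 1 match farther from its start. Yap1 held 1 match as well, and Lats1 and Lats2 held none. Matches thus stood in 5 of 7 windows, against 12.6% of 32851 windows of the same length over all genes. On mm10 the 9 genes lie on chr3:57455644-57575910 (Wwtr1), chr3:145646971-145649985 (Cyr61), chr7:112679320-112906805 (Tead1), chr9:7932001-8004596 (Yap1), chr9:102717804-102733417 (Amotl2), chr10:7681209-7716461 (Lats1), chr10:24595442-24598682 (Ctgf), chr14:57689662-57746123 (Lats2) and chr19:36111965-36119844 (Ankrd1). The AP-1 letters TGANTCA, searched on both strands, stood in 0 of the 7 windows and in 6.75% of all. A match describes the letters only and shows no binding.

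Levels between genes were compared as RPKM (CPM divided by the gene's length in kilobases), from gene lengths of 1765 bp for Ankrd1 to 9962 bp for Tead1. Yap1 had the highest level in all 4 groups, with 15.6 ± 0.89 RPKM (SD, n = 10) for Fc and 16.9 ± 1.74 (SD, n = 10) for Fc(mML1)B3 under the HFD, and 19.0 ± 0.547 (SD, n = 9) and 17.9 ± 1.56 (SD, n = 7) under the standard diet. Its range over mice lay apart from that of the next gene in 3 groups and overlapped that of Ctgf in the Fc mice under the HFD. Amotl2 (7.49 to 8.57 RPKM over the group means), Wwtr1 (5.25 to 6.65), Ctgf (4.50 to 8.55) and Cyr61 (4.95 to 5.60) formed a middle band, in which the range of each gene overlapped that of its neighbour. Lats1 (3.68 to 5.39 RPKM) overlapped Lats2 (3.16 to 3.56) on the HFD, and it ranked 5 of 9, within that band, on the standard diet. The range of Lats2 overlapped that of the gene above it in every group and lay apart from that of Tead1 in the 3 groups where Tead1 came next. Tead1 (1.67 to 2.17 RPKM) and Ankrd1 (0.904 to 2.10) came last, and under the standard diet the ranges of Tead1 and Ankrd1 lay apart from each other in both groups.

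The spread over mice differed by gene. Yap1 had coefficients of variation of 2.88% to 10.3% within the groups, Lats1 of 1.75% to 12.7% and Wwtr1 of 8.97% to 12.5%. Ctgf varied by 27.1% to 56.5% and Ankrd1 by 32.9% to 79.4%. Ankrd1 rests on 6 to 185 reads per library and Yap1 on at least 957, so counting error alone is larger for Ankrd1. In none of the 36 tests of a gene in a group did a single mouse stand apart as an outlier (Dixon's test at the 95% level).

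**Figure D1:**
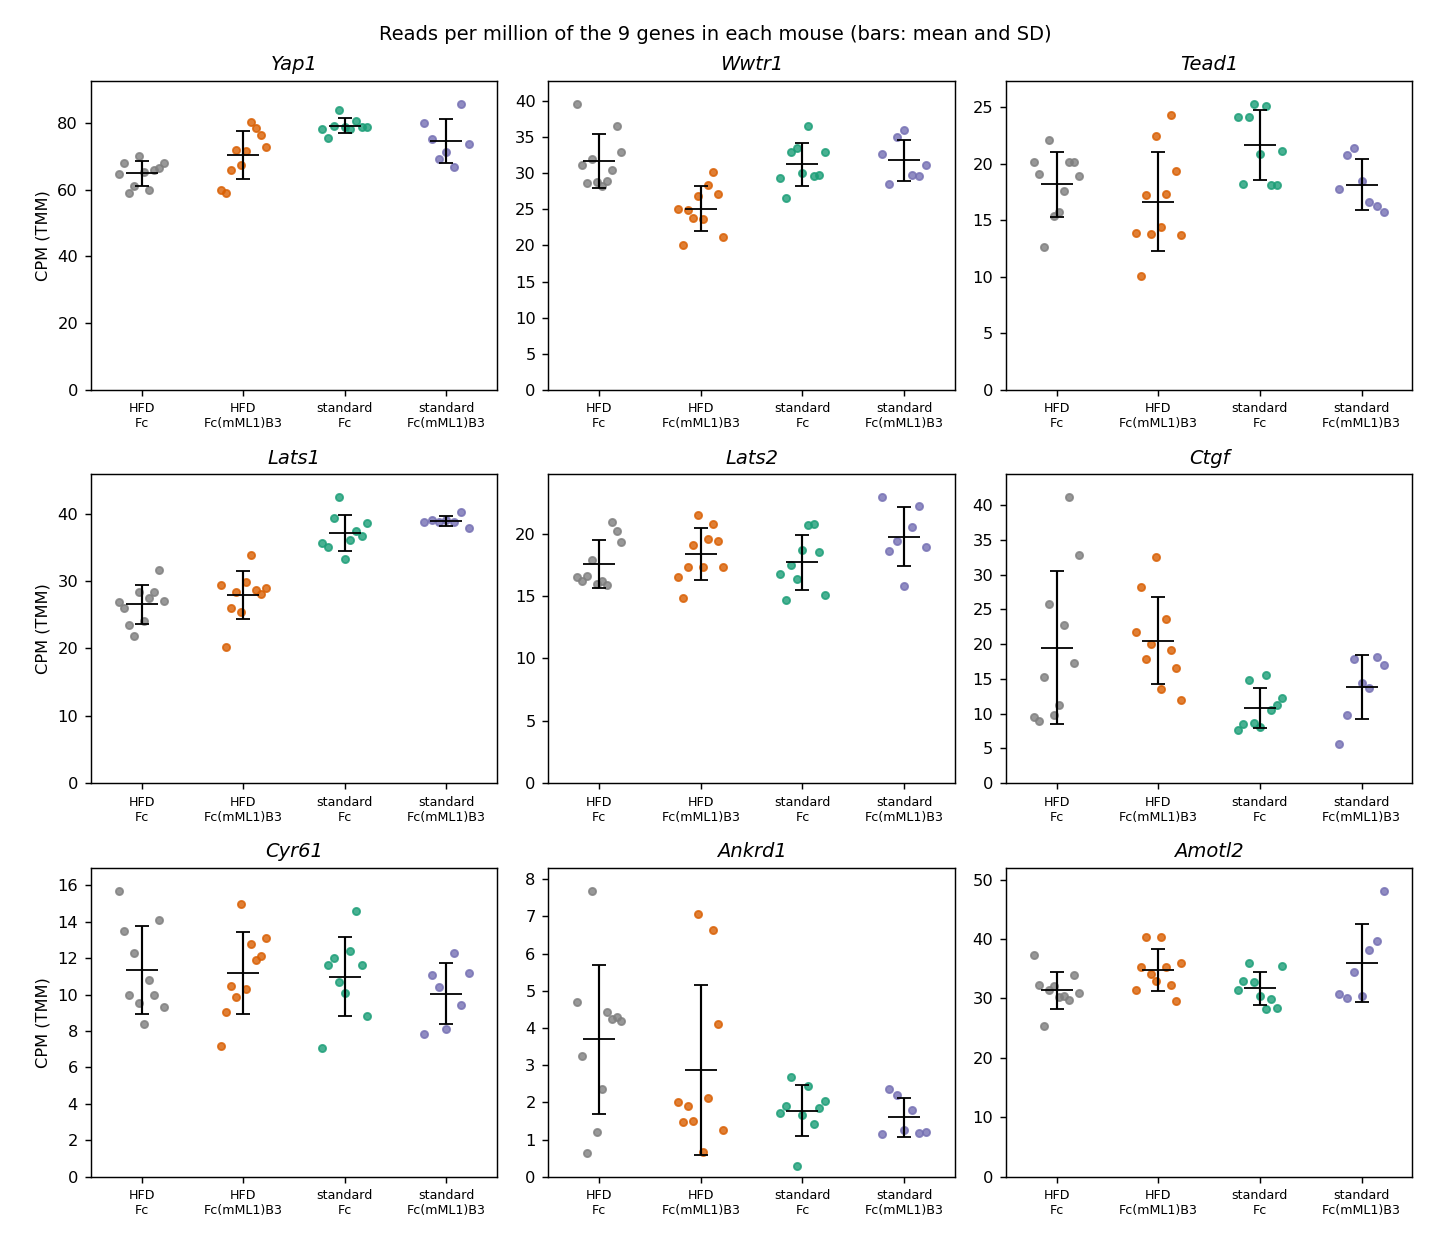
Level of each of the 9 genes in CPM (vertical axes, from 0) in every mouse of the 4 groups, with points for mice and lines for the mean and SD. The mean of Wwtr1 was lowest in the Fc(mML1)B3 mice under the HFD, Lats1 was higher in both standard diet groups, and Ctgf and Ankrd1 spread widest under the HFD.

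Under the HFD, Wwtr1 was the one gene of the 9 called with Fc(mML1)B3, and it fell. Its level was 28.2 CPM in the lowest, 30.8 in the median and 39.6 in the highest Fc mouse, against 20, 25.0 and 30.2 CPM with Fc(mML1)B3. The groups overlapped, but each of the 10 treated mice was below the Fc median. The mean was 25.1 ± 3.14 CPM (SD, n = 10) against 31.7 ± 3.76 (SD, n = 10), a log2 fold change of -0.32 (SE 0.07, 95% interval -0.48 to -0.17, edgeR quasi-likelihood test, adjusted p = 0.00509) or 0.8-fold. The call was kept in all 20 fits that left out 1 library (-0.35 to -0.28, edgeR, adjusted p 0.00316 to 0.0131). Wwtr1 was 1 of the 9 genes called, where 14.8% of all 13299 genes tested were (6.68% lower and 8.14% higher). At the thresholds of the study for this diet, an adjusted p below 0.1 and a change over 2-fold, none of the 9 was called, against 1.34% of all genes. At an unadjusted p under 0.05, 3 of the 9 passed by edgeR (Wwtr1, Yap1 and Amotl2). The share of all genes at that unadjusted limit is not given, here or below. DESeq2 called 1 of the 9 after adjustment, beside 2287 of all genes. With mice 1 to 4 of the Fc(mML1)B3 group alone the log2 fold change of Wwtr1 was -0.40 (edgeR, adjusted p = 0.0221), and with mice 5 to 10 alone it was -0.26 (adjusted p = 0.0507), which loses the call (adjusted p 0.00119 to 0.0507 over 7 alternatives).

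Yap1, the partner coactivator, was at 59.0, 65.7 and 70.2 CPM (lowest, median and highest mouse) with Fc and at 59.1, 71.8 and 80.3 with Fc(mML1)B3 under the HFD. The groups overlapped, with 8 of 10 treated mice above the Fc median. The log2 fold change was 0.13 (SE 0.06, 95% interval 0.01 to 0.25, edgeR, adjusted p = 0.15). It was 0.21 (edgeR, adjusted p = 0.0241) with Fc(mML1)B3 mice 5 to 10 alone and 0.02 with mice 1 to 4 alone, so the call depended on which of them were used (adjusted p 0.0241 to 0.903 over 7 alternatives).

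None of the other 7 genes passed the test under the HFD. Amotl2 came nearest, at 29.5, 34.7 and 40.3 CPM with Fc(mML1)B3 against 25.3, 31.2 and 37.3 with Fc, a log2 fold change of 0.16 (SE 0.07, edgeR, adjusted p = 0.118), with 9 of 10 treated mice above the Fc median. Among the readout genes, the intervals were wide for Ctgf (log2 fold change 0.10, 95% interval -0.43 to 0.62) and Ankrd1 (-0.34, -1.16 to 0.47) and narrower for Cyr61 (-0.02, -0.27 to 0.24). Ankrd1 had unlike values in the 2 runs of file numbers, at -1.06 (edgeR, adjusted p = 0.137) with Fc(mML1)B3 mice 1 to 4 alone and 0.01 with mice 5 to 10 alone (0.137 to 0.994 over 7 alternatives). The log2 fold changes of Lats1 and Lats2 were both 0.08, with upper bounds of 0.24 and 0.23, and that of Tead1 was -0.11 (95% interval -0.38 to 0.15).

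Ctgf had its highest levels in mice 8 and 10 of the Fc group under the HFD, at 41.1 and 32.8 CPM, against a group median of 16.3 and a lowest mouse of 8.92. In the treated mice it ranged from 12.0 to 32.5 CPM around a median of 19.6. The means, 19.5 ± 11 (SD, n = 10) and 20.5 ± 6.32 CPM (SD, n = 10), differed by far less than the spread. Ankrd1 ranged from 0.633 to 7.69 CPM with Fc (median 4.22) and from 0.675 to 7.07 CPM with Fc(mML1)B3 (median 1.95), so that it spanned the same range in both groups.

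Under the standard diet, none of the 9 genes was called with Fc(mML1)B3, while 16.1% of the 13570 genes tested were (7.55% lower and 8.56% higher). None was called either at one set of thresholds the study states for this diet, an adjusted p below 0.05 and a change over 1.5-fold, which 2.36% of genes passed. At an unadjusted p under 0.05, 1 of the 9 passed by edgeR, and DESeq2 called 1 after adjustment, beside 2491 of all genes. Both were Tead1, the DNA-binding partner, at 15.7, 17.8 and 21.4 CPM in the lowest, median and highest Fc(mML1)B3 mouse against 18.1, 21.1 and 25.3 with Fc. The groups overlapped, with 6 of 7 treated mice below the Fc median. Its log2 fold change was -0.26 (SE 0.09, 95% interval -0.44 to -0.07), with an adjusted p of 0.0534 by edgeR and 0.0365 by DESeq2. With the libraries of file numbers above 100 alone, 4 Fc mice and 7 Fc(mML1)B3 mice, it was -0.18 (edgeR, adjusted p = 0.319), and over 6 alternatives the adjusted p was 0.0365 to 0.319. Leaving out Fc mouse 2, 7 or 8 or Fc(mML1)B3 mouse 2 or 3 gave -0.29 to -0.30 (edgeR, adjusted p between 0.0283 and 0.0373), which is a call.

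Wwtr1 was at 26.5, 30 and 36.5 CPM with Fc and at 28.5, 31.1 and 36 with Fc(mML1)B3 under the standard diet, and the groups overlapped almost in full. The log2 fold change was 0.02 (SE 0.06, 95% interval -0.11 to 0.16, edgeR, adjusted p = 0.857). Yap1 was at 75.5 to 84.0 CPM with Fc and at 66.8 to 85.7 with Fc(mML1)B3, a log2 fold change of -0.09 (edgeR, adjusted p = 0.216). The kinase gene Lats1 showed the tightest treated group, 37.9 to 40.2 CPM, with all 7 mice above the Fc median of 36.7, but the log2 fold change of 0.06 did not pass the test (edgeR, adjusted p = 0.373).

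Ctgf was at 7.72, 10.6 and 15.6 CPM with Fc and at 5.67, 14.4 and 18.1 with Fc(mML1)B3 under the standard diet. The treated mice held both the lowest and the highest value, and the log2 fold change of 0.35 (SE 0.20, 95% interval -0.07 to 0.76, edgeR, adjusted p = 0.257) was within the spread. Without Fc(mML1)B3 mouse 1 it was 0.48 (edgeR, adjusted p = 0.0483), which is a call resting on 1 library. Amotl2 reached 48.1 CPM in Fc(mML1)B3 mouse 7, against 28.3 to 35.9 with Fc, and its log2 fold change was 0.18 (edgeR, adjusted p = 0.185). Lats2, Cyr61 and Ankrd1 had log2 fold changes of 0.16, -0.13 and -0.16, none of which passed.

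**Figure D2:**
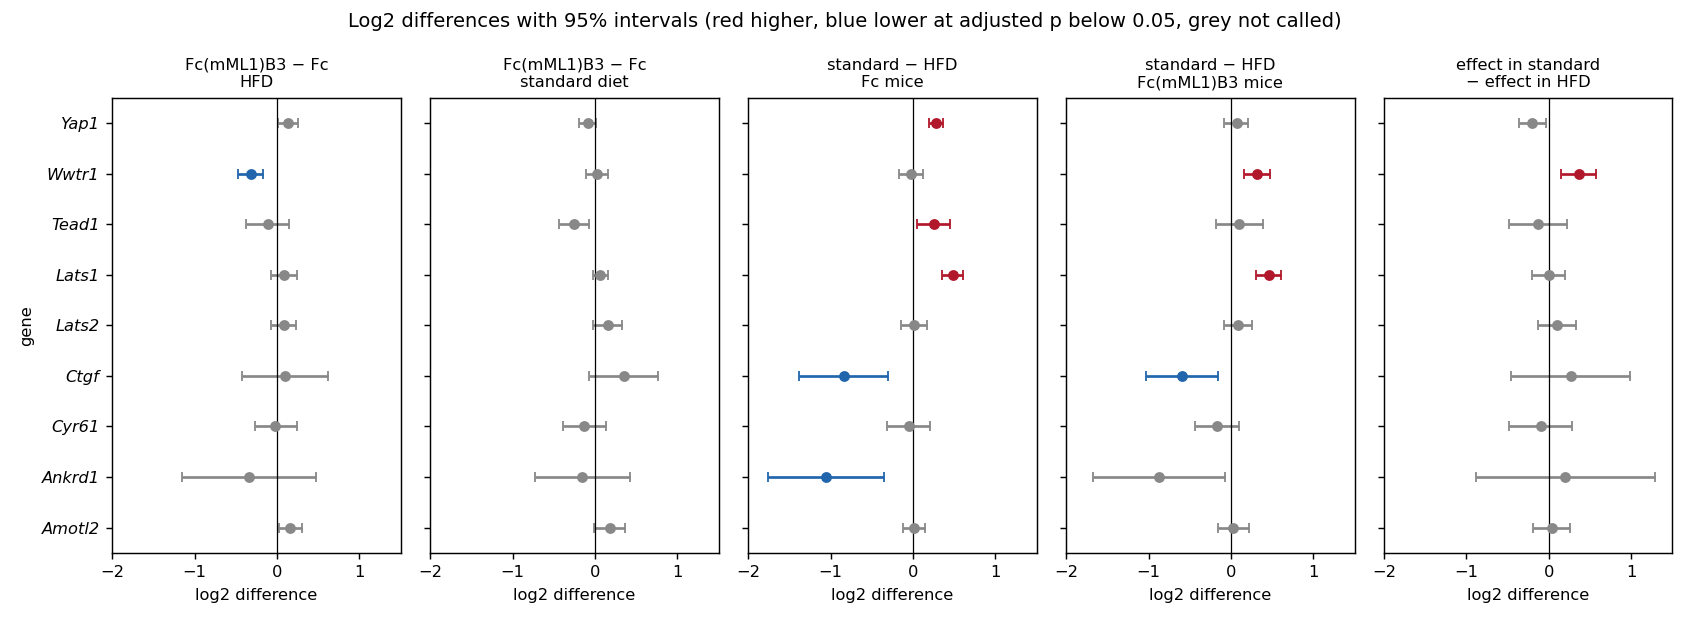
Log2 difference (horizontal axes) of each of the 9 genes in the 5 comparisons, with points for the edgeR estimate and bars for the 95% interval. The interval of Wwtr1 lay below 0 under the HFD (-0.48 to -0.17), included 0 under the standard diet (-0.11 to 0.16) and lay above 0 for the difference between the diets (0.15 to 0.57).

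Whether the effect depended on the diet was asked with an interaction term fitted to the 36 libraries. For Wwtr1 the effect under the standard diet exceeded that under the HFD by 0.36 on the log2 scale (SE 0.11, 95% interval 0.15 to 0.57, edgeR, adjusted p = 0.0242), so the fall under the HFD differed from the value under the standard diet. It was the single call among the 9 genes, beside 9.06% of 14105 genes over the whole table (4.4% lower and 4.66% higher). Over the 36 fits that left out 1 library each the value was 0.31 to 0.38, and it lost the call in the fit without Fc(mML1)B3 mouse 4 of the standard diet (0.31, edgeR, adjusted p = 0.055). For Yap1 the difference was -0.20 (SE 0.08, 95% interval -0.36 to -0.04, edgeR, adjusted p = 0.104). It passed with DESeq2 (-0.22, adjusted p = 0.0488, and 0.0488 to 0.11 over 5 alternatives) and without Fc(mML1)B3 mouse 1 or 2 of the HFD or mouse 6 of the standard diet (edgeR, -0.23, -0.24 and -0.26, adjusted p = 0.0492, 0.0252 and 0.0297).

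Between the 2 experiments more genes were called than with the injected protein, among the 9 and among all. In the Fc mice, Yap1, Lats1 and Tead1 were higher and Ctgf and Ankrd1 lower under the standard diet than under the HFD, 5 of 9 genes where 49% of 13506 genes were called (25.2% lower and 23.9% higher). That share is near the background. In the Fc(mML1)B3 mice, Lats1 and Wwtr1 were higher and Ctgf lower, 3 of 9 genes where 38.2% of 13627 were called (19.1% in each direction). The 2 diet comparisons use other mice than each other, but each shares its libraries with the comparisons of the proteins, so their values stand side by side here without a test of overlap.

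Lats1 rose under the standard diet in both. With Fc it was at 21.8, 27 and 31.7 CPM under the HFD and at 33.2, 36.7 and 42.4 under the standard diet, and the groups lay apart. The log2 fold change was 0.48 (SE 0.06, 95% interval 0.35 to 0.61, edgeR, adjusted p = 1.91e-06). In the Fc(mML1)B3 mice it was at 20.2, 28.5 and 33.9 against 37.9, 38.8 and 40.2 CPM, again apart, with a log2 fold change of 0.46 (SE 0.07, edgeR, adjusted p = 5.22e-05). The interaction for Lats1 was 0.00 with a 95% interval of -0.20 to 0.19. Lats2, its paralog, had log2 fold changes of 0.01 and 0.09 and was not called in either.

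The coactivator genes were called in different groups. Yap1 rose under the standard diet with Fc, where the highest HFD mouse (70.2 CPM) lay below the lowest standard diet mouse (75.5), a log2 fold change of 0.28 (SE 0.04, 95% interval 0.20 to 0.37, edgeR, adjusted p = 1.11e-05). With Fc(mML1)B3 its value was 0.07 (edgeR, adjusted p = 0.485). Wwtr1 showed the opposite order, with -0.02 (edgeR, adjusted p = 0.795) for Fc and a rise of 0.32 (SE 0.08, 95% interval 0.16 to 0.48, edgeR, adjusted p = 0.00294, all 7 mice above the HFD median) for Fc(mML1)B3. Tead1 was higher in the Fc mice under the standard diet, with a log2 fold change of 0.25 (SE 0.10, edgeR, adjusted p = 0.0342). That call was lost in 5 of the 19 fits without 1 library (Fc mouse 6 of the HFD and Fc mice 1, 3, 4 and 6 of the standard diet, adjusted p 0.0501 to 0.0663) and with upper-quartile scaling (0.16, adjusted p = 0.186, and 0.024 to 0.186 over 5 alternatives).

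Under the standard diet Ctgf fell in both groups of mice and Ankrd1 in the Fc mice, while Cyr61 and Amotl2 were not called. In the Fc mice Ctgf was 10.8 ± 2.93 CPM (SD, n = 9) against 19.5 ± 11 (SD, n = 10) under the HFD, a log2 fold change of -0.84 (SE 0.26, 95% interval -1.38 to -0.30, edgeR, adjusted p = 0.0108) or 0.558-fold, with 9 of 9 mice below the HFD median. In the Fc(mML1)B3 mice it fell by 0.59 (SE 0.21, 95% interval -1.03 to -0.16, edgeR, adjusted p = 0.0303), with 7 of 7 below. The second of these calls was lost in 4 of 17 fits, without Fc(mML1)B3 mouse 2 or 5 of the HFD or mouse 1 or 2 of the standard diet (-0.53, -0.50, -0.46 and -0.52, edgeR, adjusted p 0.051 to 0.0685).

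Ankrd1 was 1.78 ± 0.68 CPM (SD, n = 9) in the Fc mice of the standard diet, with a lowest, median and highest mouse of 0.292, 1.85 and 2.68, against 3.7 ± 2 (SD, n = 10) under the HFD. The log2 fold change was -1.05 (SE 0.34, 95% interval -1.76 to -0.35, edgeR, adjusted p = 0.0141) or 0.482-fold, with all 9 mice below the HFD median and the ranges overlapping. The call was kept in all fits without 1 library (-1.17 to -0.87) and lost with limma-voom (-0.94, adjusted p = 0.0747, and 0.00436 to 0.0747 over 5 alternatives). With Fc(mML1)B3 the value was -0.87 (95% interval -1.68 to -0.07, edgeR, adjusted p = 0.08; DESeq2, adjusted p = 0.0498, and 0.0498 to 0.205 over 5 alternatives). Cyr61 had log2 fold changes of -0.05 and -0.17, and its 4 group means stayed between 10.0 and 11.4 CPM.

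Markers of bile duct cells and stellate cells were read in the same diet comparisons, in which 49% (Fc) and 38.2% (Fc(mML1)B3) of all genes were called. In bulk liver, fewer cells of a type and less RNA per cell cannot be told apart. Of 8 cholangiocyte markers 7 were tested. Lower under the standard diet were 4 of the 7 in Fc mice and 3 in treated mice. The summed level of all 8 was 185 to 881 CPM with a median of 596 in Fc mice on the HFD and 248 to 518 (median 342) on the standard diet. With Fc(mML1)B3 it was 186 to 872 CPM (median 334) on the HFD and 197 to 428 (median 365) on the standard diet. Of 10 stellate cell and fibroblast markers, 6 were lower and 1 higher with Fc, and 5 lower and 1 higher with Fc(mML1)B3. Their summed level was 824 to 1610 CPM (Fc) and 810 to 1830 CPM (Fc(mML1)B3) under the HFD, and 695 to 1110 and 600 to 819 CPM under the standard diet. No marker of either list was at 0 reads in every library. Their part in the differences of Ctgf and Ankrd1 was not tested. Beside the fall of Wwtr1 with Fc(mML1)B3 under the HFD, 0 of the 10 stellate markers and 0 of the 7 cholangiocyte markers passed the test by edgeR (1 of each at an unadjusted p under 0.05), with median log2 fold changes of -0.25 and -0.04. Of 8 Kupffer cell and macrophage markers 0 passed as well, with 5 at an unadjusted p under 0.05. Of these 8 markers 6 had a negative and 2 a positive value, and the median log2 fold change was -0.33. Their summed level was 245 to 581 CPM with Fc and 227 to 410 with Fc(mML1)B3. Of 8 hepatocyte markers 1 was higher, 7 had a positive value and the median log2 fold change was 0.25. Their summed level was 77500 to 138000 CPM (median 102000) with Fc and 72000 to 148000 CPM (median 119000) with Fc(mML1)B3. Of 8 sinusoidal and vascular endothelial markers 1 was higher, and all 8 were positive with a median of 0.17 and a summed level of 229 to 282 CPM with Fc and 211 to 361 with Fc(mML1)B3. The part of these 5 lists in the fall of Wwtr1 was not tested.

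The wider pathway was read from 4 lists, of which Lats2, Amotl2 and Ptpn14 stand in 2 each, over 56 genes in all. Under the HFD, 5 of 51 tested genes were called (9.8%, 4 lower and 1 higher, against 14.8% of all genes). That count was 8 without Fc(mML1)B3 mouse 2, 9 without mouse 5 and 3 without mouse 6. Over the 20 fits without 1 library, 1555 to 2848 of all genes were called, against 1972 with every mouse. Under the standard diet 14 of 51 were (27.5%, 11 lower and 3 higher, against 16.1%). That count was 7 to 15 over the 16 fits without 1 library, with 7 to 9 without Fc mouse 3, 4, 6 or 9 or Fc(mML1)B3 mouse 1, 4 or 6. Over those 16 fits 1730 to 2230 of all genes were called. The pathway count was 3 with file numbers above 100 alone, where 942 of all genes were called in place of 2186. With no filter beyond 1 read it was 8, where 1952 of all genes were called. In the diet comparisons 30 of 52 were called with Fc (57.7%, against 49% of all genes) and 25 of 51 with Fc(mML1)B3 (49%, against 38.2%), and 6 of 53 in the interaction (11.3%, against 9.06%).

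Among 7 tested coactivator and DNA-binding genes, 2 were lower with Fc(mML1)B3 under the HFD, Wwtr1 and Tead2, a paralog of Tead1 (log2 fold change -0.59, SE 0.19, edgeR, adjusted p = 0.0386), where 6.68% of all genes were lower. Tead2 was low in level, at 2.07 CPM with Fc and 1.37 with Fc(mML1)B3, and its call was lost in 10 of 20 fits, those without Fc mouse 1, 4, 7 or 9 or Fc(mML1)B3 mouse 1, 3, 6, 7, 8 or 10. It was also lost with Fc(mML1)B3 mice 1 to 4 alone (-0.49, edgeR, adjusted p = 0.218) and with mice 5 to 10 alone (-0.65, adjusted p = 0.0771). With no filter beyond 1 read the adjusted p was 0.0572 (edgeR). Under the standard diet the 2 lower genes were Tead2 (-0.53, edgeR, adjusted p = 0.0382) and Vgll3, a TEAD cofactor at under 1 CPM on average (-1.19, adjusted p = 0.0142), where 7.55% of all genes were lower. Tead2 lost its call in 10 of 16 fits, those without Fc mouse 2, 4, 6, 7, 8 or 9 or Fc(mML1)B3 mouse 1, 3, 4 or 7. With file numbers above 100 alone both Tead2 (-0.62, edgeR, adjusted p = 0.0819) and Vgll3 (-1.19, adjusted p = 0.0637) lost their calls, with values no smaller than over all mice. The median log2 fold change of the list was -0.11 on the HFD and -0.23 on the standard diet, against -0.01 over all genes in each.

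Of 15 kinase and adaptor genes, among them Lats1 and Lats2, none passed under the HFD by edgeR, with 2 at an unadjusted p under 0.05 and 1 called by DESeq2, where 14.8% of all genes were called by edgeR. The edgeR count was 2 without Fc(mML1)B3 mouse 2 and 1 without mouse 1 or 3. It was 2 with Fc(mML1)B3 mice 5 to 10 alone, where 1703 of all genes were called. Of the 15, 3 were called under the standard diet, a share near the 16.1% of all genes. Map4k4, a kinase that acts on LATS in parallel to MST1 and MST2, fell from a mean of 25.3 CPM (SD 2.06, n = 9) with Fc to one of 18 (SD 2.41, n = 7), with a log2 fold change of -0.50 (SE 0.07, edgeR, adjusted p = 0.000107), and the groups lay apart. Mob1a, a LATS cofactor, was lower (-0.22, edgeR, adjusted p = 0.0376), and Wwc1, the gene of the upstream adaptor KIBRA, was higher (0.21, adjusted p = 0.0111). Mob1a lost its call in 8 of 16 fits, those without Fc mouse 1, 2, 4 or 9 or Fc(mML1)B3 mouse 2, 4, 5 or 6 (edgeR, adjusted p up to 0.0839), while Map4k4 and Wwc1 kept theirs in all 16. Without Fc mouse 5 of the standard diet 5 of the list were called in place of 3. The count of all genes called was 1730 to 2230 over the 16 fits. In the Fc mice 9 were higher and 1 lower under the standard diet, where 23.9% of all genes were higher and 25.2% lower, led by Mob1b, the paralog of Mob1a, which rose from a mean of 5.17 CPM (SD 1.28, n = 10) to one of 21.3 (SD 1.99, n = 9), with a log2 fold change of 2.03 (SE 0.11, edgeR, adjusted p = 4.27e-11). Taok1, a kinase upstream of the cascade, rose by 0.45 (edgeR, adjusted p = 6.17e-07) beside Lats1, and Sav1, the scaffold of the upstream kinases, fell by 0.39 (adjusted p = 1.9e-06). In the Fc(mML1)B3 mice 7 were higher and 2 lower (19.1% of all genes in each direction), with Mob1b at 1.62 and Lats1 among them.

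Of 12 junction and polarity genes, among them Amotl2, none passed under the HFD by edgeR or DESeq2 (4 at an unadjusted p under 0.05 by edgeR), where 14.8% of all genes were called by edgeR. The edgeR count was 1 without Fc mouse 1. It was also 1 with upper-quartile scaling (1940 of all genes called) and with Fc(mML1)B3 mice 1 to 4 alone (705 called). With Fc(mML1)B3 under the standard diet 5 were lower and 1 higher, where 7.55% and 8.56% of all genes were, but the count of 6 fell to 1 without Fc(mML1)B3 mouse 1, to 2 without Fc mouse 3 or 4 or Fc(mML1)B3 mouse 4 or 6, and to 3 without Fc mouse 6 or 9 or Fc(mML1)B3 mouse 5 or 7. The lower ones included the tight junction gene Tjp1 (log2 fold change -0.16, edgeR, adjusted p = 0.036), the polarity gene Inadl (-0.25, adjusted p = 0.0295) and Amotl1, a paralog of Amotl2 (-0.24, adjusted p = 0.0305). Tjp1 lost its call in 8 of 16 fits without 1 library, Amotl1 in 8 and Inadl in 4. Amotl2 itself was at 0.18 and not called. With the libraries of file numbers above 100 alone, Map4k4 kept its call (-0.53), and Tjp1 (-0.11), Inadl (-0.16), Amotl1 (-0.25), Mob1a (-0.14) and Wwc1 (0.21) lost theirs.

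Among 20 tested target genes, which hold Ctgf, Cyr61, Ankrd1 and Amotl2, 2 were lower and 1 higher with Fc(mML1)B3 in each diet, where 14.8% (HFD) and 16.1% (standard diet) of all genes were called. Nt5e was among them in both, in opposite directions. Under the HFD Gadd45a, a growth arrest gene, fell from a mean of 8.7 CPM (SD 2.04, n = 10) to one of 4.63 (SD 0.982, n = 10), with a log2 fold change of -0.90 (SE 0.15, edgeR, adjusted p = 0.000224), Crim1 fell by 0.29 (adjusted p = 0.0125) and Nt5e, which encodes the ectonucleotidase CD73, rose by 0.72 (adjusted p = 0.0228). With Fc(mML1)B3 mice 1 to 4 alone Nt5e was at 0.31 (edgeR, adjusted p = 0.324), and its call was also lost with limma-voom (adjusted p = 0.0698) and without Fc(mML1)B3 mouse 6 (0.61, adjusted p = 0.0512). Crim1 lost its call in both subsets of the Fc(mML1)B3 mice (adjusted p = 0.0507 and 0.0572). Without Fc(mML1)B3 mouse 5 of the HFD, 7 of the list were called. Over the 20 fits without 1 library the count of all genes called ranged from 1555 to 2848. Under the standard diet Nt5e fell by 0.71 (edgeR, adjusted p = 0.0123), Rbms3 fell by 0.40 (adjusted p = 0.0488) and Nuak2, a kinase gene, rose by 0.46 (adjusted p = 0.00191). Rbms3 lost its call in 11 of 16 fits without 1 library, those that kept it being without Fc mouse 5 or 7 or Fc(mML1)B3 mouse 2, 3 or 5. With file numbers above 100 alone, Nt5e (-0.74, edgeR, adjusted p = 0.0655) and Rbms3 (-0.43, adjusted p = 0.157) lost theirs, with values no smaller than over all mice. The median of the list was -0.17 and -0.10. In the Fc mice, 7 targets were lower and 2 higher under the standard diet than under the HFD (median -0.28), and in the Fc(mML1)B3 mice 5 were lower and 3 higher (median -0.16), or 5 in all without Fc(mML1)B3 mouse 1 of the standard diet, where 49% and 38.2% of all genes were called. Axl, a receptor tyrosine kinase gene (-0.45 with Fc and -0.38 with Fc(mML1)B3), and Ccdc80 (-0.69 and -0.65) were lower in both beside Ctgf, and Dock5 was higher in both (0.52 and 0.83).

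**Figure D3:**
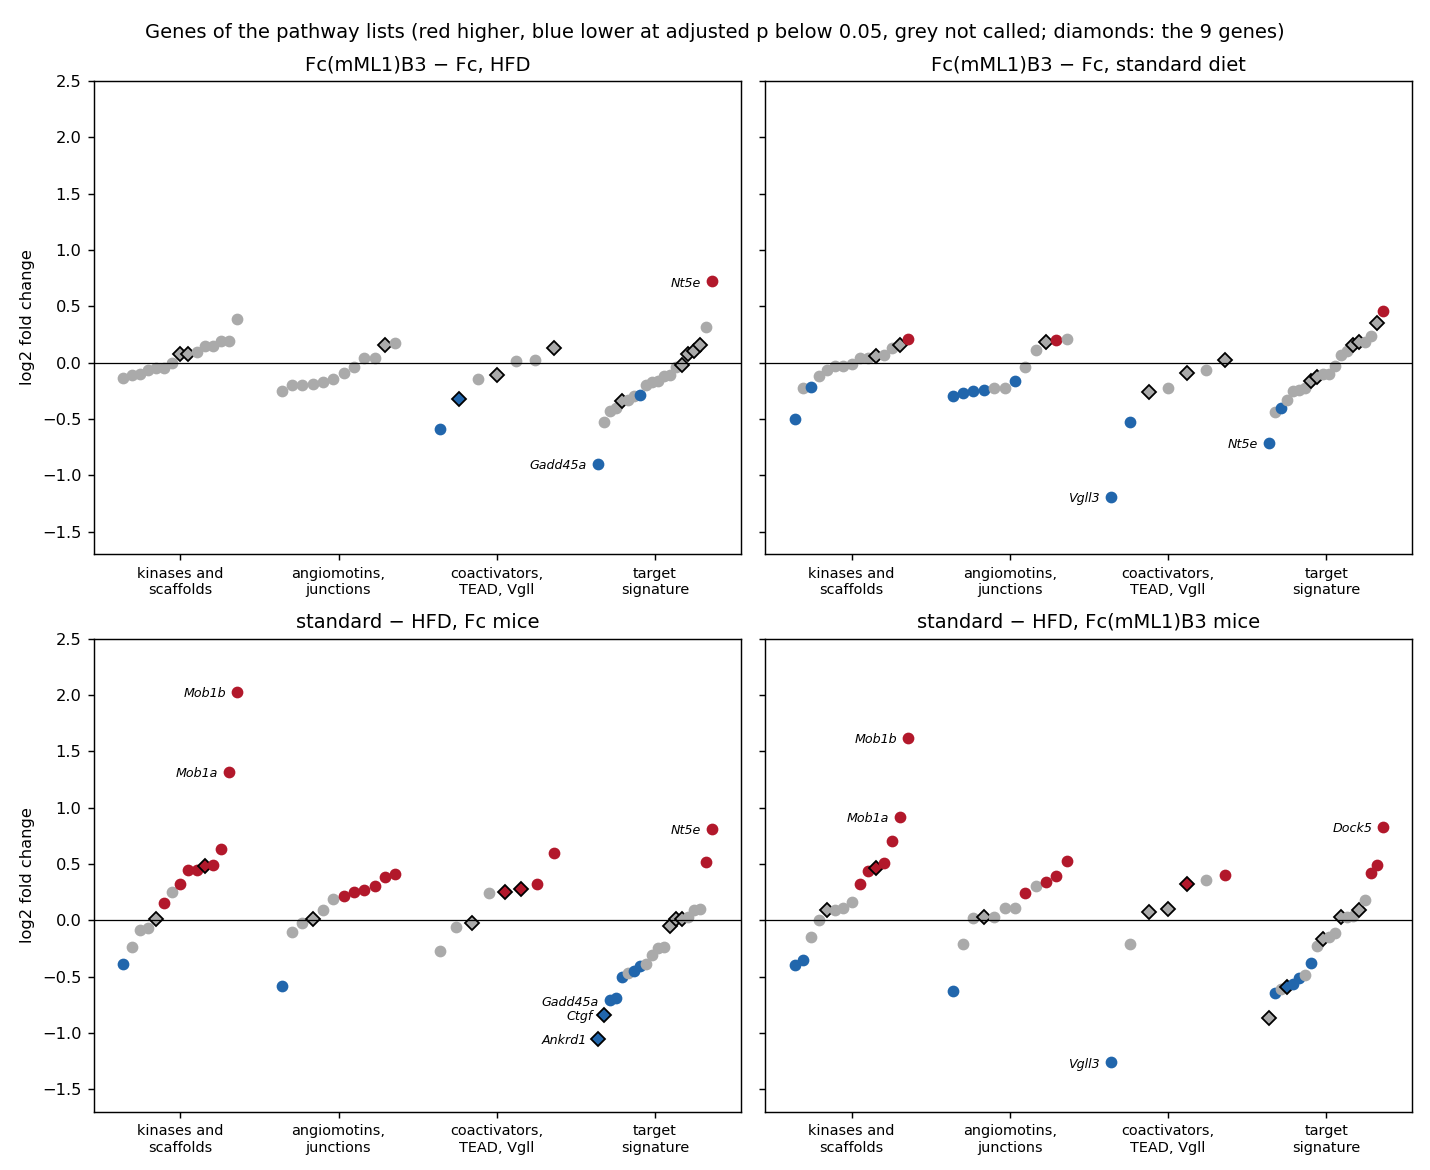
Log2 fold change (vertical axes) of every tested gene of the 4 pathway lists in 4 comparisons, with red points for genes called higher, blue for genes called lower, grey for genes not called and diamonds for the 9 genes. Few points were called under the HFD (5 genes of 51), and the kinase list stood mostly above 0 for Fc between the diets, where 9 were higher and 1 lower.

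Over mice, 3 of the 36 pairs among the 9 genes covaried once the group means were taken out (log2 CPM minus the group mean, 36 mice, permutation tests with 100000 resamples, Benjamini-Hochberg adjustment over the 36 pairs). Wwtr1 and Tead1 rose and fell together, with Pearson r = 0.73 (p = 1e-05, the smallest these permutations can give, adjusted p = 0.00036) and Spearman rho = 0.70 (adjusted p = 0.00054). It was 0.71 without the 2 mice farthest from the median, 0.79 within the HFD experiment and 0.58 within the standard diet experiment. Tead1 and Ankrd1 had r = 0.64 and rho = 0.69 (permutation p = 0.00011, adjusted p = 0.00198), and r was 0.62 without the 2 farthest mice. It was 0.84 on the HFD. On the standard diet it was 0.01 over the 16 mice, -0.23 in the 9 Fc mice and 0.75 in the 7 Fc(mML1)B3 mice. That low value rests on Fc mouse 4, in which Ankrd1 had 6 reads, and r was 0.66 without it and -0.08 to 0.05 without any other mouse, fits chosen after seeing the data. Yap1 and Lats1 had r = 0.57 and rho = 0.56 (permutation p = 0.00066, adjusted p = 0.00792), r = 0.55 without the 2 farthest mice, 0.62 on the HFD and 0.38 on the standard diet.

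None of the 6 pairs among the readout genes passed the adjustment. Ctgf and Cyr61 had r = 0.03 and rho = 0.03 (permutation p = 0.853, adjusted p = 0.93). Ankrd1 had r = 0.38 and rho = 0.38 with Ctgf (permutation p = 0.0275, adjusted p = 0.121) and r = 0.36 and rho = 0.44 with Cyr61 (permutation p = 0.0472, adjusted p = 0.141). Yap1 and its partner coactivator gene Wwtr1 had r = 0.30 (permutation test, adjusted p = 0.239).

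The genes whose pattern over mice was most like each of the 9 were sought among 14105 genes by the same centred Pearson r over the 36 mice, as a description. Ankrd1 stood nearest to the cholangiocyte keratin gene Krt7 and to Spp1 (osteopontin), both at 0.88, then Tspan8, Kcne3 and Slc5a1. The nearest to Tead1 were Mboat1 (0.87), Gprasp1, Lims1, Eps8 and Cd2ap (0.83), and those to Wwtr1 were Tcf12 (0.77), Add3, Map4k3, Scai and Hgf (0.74). Hgf encodes the natural ligand of Met, and its r with Wwtr1 was 0.90 on the HFD and 0.21 on the standard diet. Those near Yap1 included Zfr (0.78), Gclc, Mob1b and Txlng (0.76), of which Mob1b is a LATS cofactor of the kinase list. For Lats1 they were Spag9 and Eif4g2 (both 0.85), Ankib1, Apc and Sec23a (0.82).

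Ctgf was most like AA986860 (0.86), Cebpd (0.81), Fmo5, Tsc22d3 and Atp1b1 (0.72), where Cebpd and Tsc22d3 are known as glucocorticoid-induced genes. The nearest to Amotl2 were Spry4 (0.77), an inhibitor of receptor tyrosine kinase signalling, Zbtb16, Alyref2, Col14a1 and Stx1a (0.57). Lats2 was nearest to P4ha2 (0.73), Dusp11, Wdr37, Prex2 and BC030336 (0.67). For Cyr61 the links ran from Ccdc14 (0.66) through Dos, Hr and Gdf6 to H2-K2 (0.62).

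After these neighbours had been seen, each of the 9 genes was also set beside the mean of each of 9 marker and response lists over the 36 mice, 81 relations in all. Those with an r of at least 0.55 in size are given as a description without a test. Ankrd1 and the 7 cholangiocyte markers had r = 0.88 and rho = 0.86, with r = 0.95 on the HFD and 0.68 on the standard diet. Krt7 and Spp1, its 2 nearest genes, are on that list, so this value restates them. With the stellate markers Ankrd1 had r = 0.74 and rho = 0.77, with 0.82 on the HFD and 0.47 on the standard diet. Its r was 0.55 with the mesothelial markers, -0.66 with the hepatocyte markers (-0.79 on the HFD and 0.00 on the standard diet) and -0.64 with the endothelial markers (-0.67 and -0.57). Tead1 had r = 0.72 and rho = 0.70 with the cholangiocyte markers, with 0.81 on the HFD and 0.35 on the standard diet, and r = 0.65 and rho = 0.63 with the stellate markers, with 0.73 and 0.35. With the hepatocyte markers it had r = -0.74 and rho = -0.66, with -0.83 on the HFD and -0.27 on the standard diet. Wwtr1 had r = 0.55 and rho = 0.48 with the stellate markers, with 0.64 on the HFD and 0.29 on the standard diet. With the hepatocyte markers Wwtr1 had r = -0.56 and rho = -0.50, with -0.69 on the HFD and -0.03 on the standard diet. With the Kupffer cell markers it had r = -0.57 and rho = -0.53, with -0.75 on the HFD and 0.07 on the standard diet. Ctgf had r = 0.55 and rho = 0.47 with the immediate-early genes, with 0.52 on the HFD and 0.60 on the standard diet.

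**Figure D4:**
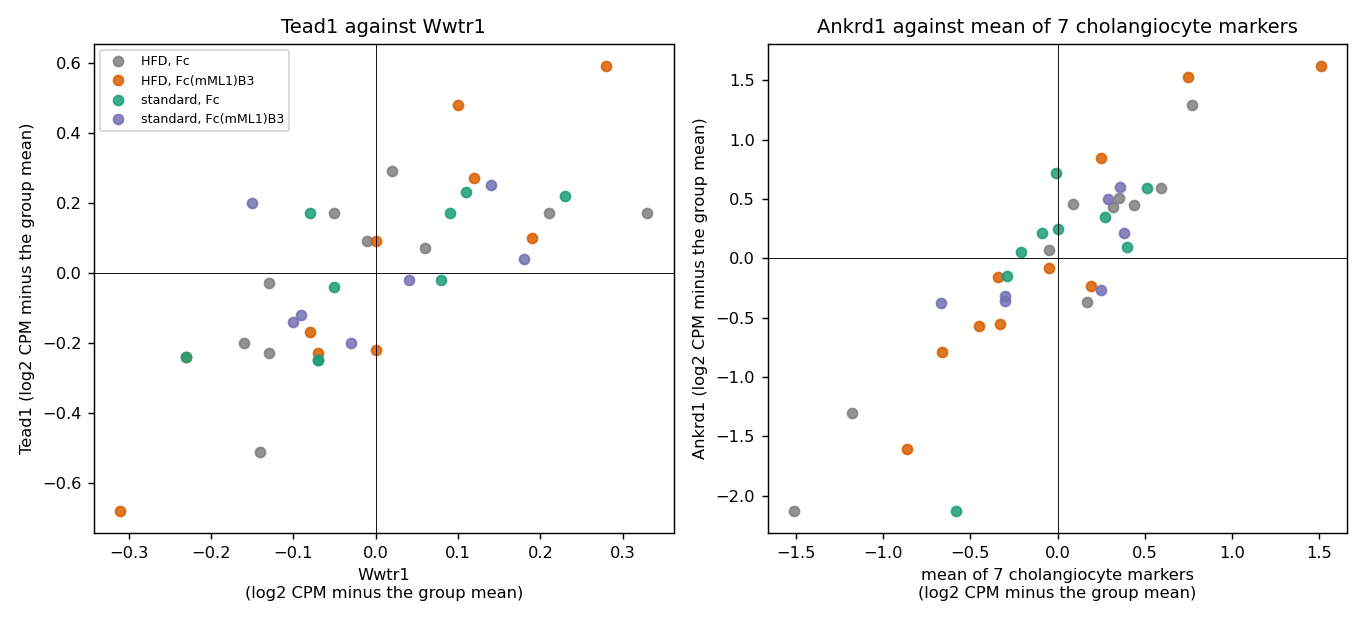
Group-centred log2 CPM of the 36 mice, with Tead1 against Wwtr1 on the left and Ankrd1 against the mean of 7 cholangiocyte markers on the right, and 1 point per mouse by group. Points rose along both axes, with r = 0.73 and r = 0.88.

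Response lists that share inputs with the readout genes were counted beside the shares of all genes called, which were 14.8% on the HFD, 16.1% on the standard diet, and 49% (Fc) and 38.2% (Fc(mML1)B3) between the diets. Of the immediate-early genes, 1 of 12 was lower with Fc(mML1)B3 under the HFD and 2 of 11 lower and 1 higher under the standard diet, and between the diets 4 of 11 were lower with Fc and 5 of 13 with Fc(mML1)B3. The SRF and MRTF targets, genes of the actin cytoskeleton, had 0 of 8 called under the HFD by edgeR and 0 at an unadjusted p under 0.05, 3 lower under the standard diet, and 5 lower and 1 higher (Fc) and 5 lower (Fc(mML1)B3) between the diets, with Acta2 at -1.37 and -2.13. Clock genes had 12 of 13 called on the HFD and 11 of 14 on the standard diet. Their part in the values of the 9 genes was not tested.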

How the data were processed

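The authors trimmed the reads with fastp, removed ribosomal RNA with Bowtie2 2.4.5, aligned the rest to mm10 with STAR 2.7.10a and counted them per gene with featureCounts (Subread 2.0.3). Both ends had to align, each end counted as 1 read, strand was ignored although the library kit keeps it, and reads with several alignments were left out. The files hold the authors' raw counts. None of the 9 genes shares exonic sequence with another gene on mm10. Groups and mouse numbers came from the sample titles.

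From the counts, genes kept by filterByExpr were scaled by TMM and tested with the quasi-likelihood test of edgeR 4.0.16 (R 4.3.3), with Benjamini-Hochberg adjustment over all genes tested and calls at 0.05. Standard errors came from the log2 fold change and F of the test. A positive value is higher with Fc(mML1)B3 or under the standard diet. Nearest genes and covariation used log2 CPM with a prior count of 2. Alternatives were DESeq2 1.42.0, limma-voom (limma 3.58.1), upper-quartile scaling, 2 other filters, the thresholds of the study, subsets by file number, a replicate block, and fits that left out 1 library. The edgeR fit was tested on simulated data.

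The 9 genes and all lists were chosen with earlier results of these data known. Named are the 9 genes, of each other list at most 4 called genes per direction by smallest p, and the 5 nearest genes, except a few that are left out here. A few values of these genes in comparisons that the rule does not reach were added after they were seen.

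At the depth given, Ankrd1 rested on as few as 6 reads in a library. The p-values of edgeR weigh a difference between groups against the spread between mice. Between the diets that difference also holds experiment, dosing and duration.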

Additional observations from a re-analysis of the deposited data

Results flagged for a closer look

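For 5 genes of the pathway named here the response to Fc(mML1)B3 was not the same in both diets by the interaction term over 36 libraries (edgeR quasi-likelihood test, Benjamini-Hochberg adjustment), each given as the log2 fold change under the standard diet minus that under the HFD. Among the 9 genes this was Wwtr1, with 0.36 (SE 0.11, adjusted p = 0.0242), from -0.32 on the HFD and 0.02 on the standard diet. Among the wider lists the difference was largest for Nt5e, at -1.4 (adjusted p = 0.00133), whose mean rose from 4.23 to 6.97 CPM with Fc(mML1)B3 under the HFD and fell from 7.46 to 4.59 CPM under the standard diet. Its rise under the HFD was not called with Fc(mML1)B3 mice 1 to 4 alone (0.31, adjusted p = 0.324). For Gadd45a it was 1.15 (adjusted p = 0.000229), from a fall of 0.90 under the HFD. It was 0.41 for Crim1 (adjusted p = 0.0116) and 0.28 for Limd1, a LIM domain gene that binds LATS (adjusted p = 0.0043). Diet goes with experiment, dosing, duration and file numbers, and these cannot be told apart.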

How the results depend on the processing

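The mouse numbers do not pair the groups, since same-numbered mice deviated together in at most 2 of 7 pairs, so the fits with a replicate block stand here alone. With the block the pathway lists held 3 calls on the HFD and 7 on the standard diet. With the replicate block 1294 genes were called under the HFD, 1296 under the standard diet and 3 of the 9 genes in the diet comparison with Fc, where Tead1 (adjusted p = 0.0587) and Ankrd1 (adjusted p = 0.126) lost their calls. The thresholds of the study, which change both limits on the HFD and add a fold limit under the standard diet, left 178 and 320 genes and 0 of the 9 in both. With Fc(mML1)B3 mice 1 to 4 alone 705 genes were called under the HFD, and with file numbers above 100 alone 942 under the standard diet. DESeq2 and upper-quartile scaling each called 1 of the 9 under the standard diet, and DESeq2 called 2 in the interaction. Values that were not called changed sign for Lats2 (-0.02, mice 1 to 4) and for Tead1 (0.05), Cyr61 (0.15) and Ankrd1 (0.01, mice 5 to 10) under the HFD, for Wwtr1 (-0.02, file numbers above 100) under the standard diet, with upper-quartile scaling for Lats2 and Amotl2 (both -0.08) with Fc and for Yap1 (0.00) and Amotl2 (-0.04) with Fc(mML1)B3 between the diets, with the block for Amotl2 there (-0.02), and for Lats1 in the interaction (0.01 with limma-voom and 0.02 with the block). Within the HFD experiment 9 pairs of genes covaried and within the standard diet 0. Over the fits that left out 1 library each, the genes called of the 9 were 1 under the HFD, 0 to 1 under the standard diet, 4 to 5 and 2 to 4 between the diets with Fc and with Fc(mML1)B3, and 0 to 2 in the interaction. Some values near 0 changed sign in these fits, with ranges of -0.07 to 0.05 for Cyr61 under the HFD and -0.01 to 0.05 for Wwtr1 under the standard diet. Between the diets with Fc they were -0.05 to 0.02 for Wwtr1, -0.02 to 0.05 for Lats2, -0.11 to 0.01 for Cyr61 and -0.01 to 0.04 for Amotl2, and with Fc(mML1)B3 -0.05 to 0.07 for Amotl2. In the interaction they were -0.06 to 0.03 for Lats1, 0.00 to 0.44 for Ankrd1 and -0.06 to 0.06 for Amotl2. The causes were not tested. At under 200 reads in each library, the depth limits Ankrd1 most.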
